A study of Mus musculus with 5 samples.

Results

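The cells described here are the blood cells found among tdTomato+ cells sorted from femur marrow after a repeated or a first marrow ablation, a surgery that empties the marrow cavity. A cell counted as a blood cell when it had at least 500 genes, at least 1000 unique molecular identifiers (UMIs, 1 per captured transcript), under 25% of UMIs from mitochondrial genes, at least 1 UMI of Ptprc and under 50 UMIs of Cxcl12 per 10000. The members were thus selected on their measured Ptprc and Cxcl12 counts. Ptprc encodes CD45, the surface phosphatase of nucleated blood cells, and Cxcl12 encodes the chemokine that reticular stromal cells make in large amounts. The rule held 3480 of the 11519 cells of these 2 libraries that passed the filters on genes, UMIs and mitochondrial share, of 47829 such cells in the whole series. The exhausted library gave 2559 of them and the naive library 921.

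All libraries came from Lepr-cre; R26R-tdTomato mice, in which cells whose lineage has expressed the leptin receptor carry the red reporter, and none of them is wild type. The naive library was taken at 15 weeks of age after 1 ablation at 13 weeks, the exhausted library at 15 weeks after ablations at 9 and 13 weeks, and the control library at 15 weeks without surgery. The remaining 2 libraries came from mice of 18 months, uninjured (aged) or 1 week after 1 ablation (aged-injury). Each group is 1 BD Rhapsody library loaded with about 30000 cells, and the number of mice behind it is not given in the sources used here. There is therefore no replicate and no test below: each interval is a 95% interval for counting error only, and differences between mice, surgeries and sorts cannot be told apart from the number of ablations.

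Marrow blood cells form a set of lineages that arise from stem cells: neutrophils and monocytes ripen through granule-making precursors, B cells pass through stages of antibody gene recombination, and resident macrophages clear dying cells and recycle iron from old red cells. Reticular stromal cells feed these lineages with Cxcl12, stem cell factor and interleukin 7. After ablation the cavity fills with clot and then with new bone and marrow, and neutrophils and macrophages take part in clearing and repair.

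Of the filtered cells, 17.6% of the naive library passed the rule (16.5 to 18.6%, exact Clopper-Pearson) against 40.8% of the exhausted library (39.5 to 42%). The share was 15.9% in the control library, 5.77% in the aged library and 0.559% in the aged-injury library, so the exhausted library was the highest of the 5. These values follow from the rule itself and from a sort for tdTomato, and describe the sorted libraries, not the marrow. Median depth was 9027 UMIs a gated cell in the naive and 8467 in the exhausted library, and the median of Ptprc was 7 UMIs in both. At the edge of the rule, 105 naive cells (11.4%) and 257 exhausted cells (10.04%) entered with 1 UMI of Ptprc, while 1609 and 1305 cells low in Cxcl12 stayed out with none. Between 40 and 50 UMIs of Cxcl12 per 10000 lay 0 naive and 5 exhausted members, and between 50 and 60 lay 1 and 4 cells just outside. With every cell thinned to 2000 UMIs before the rule was applied, the shares were 13.4% and 31.3%.

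The gated cells carried blood markers, and few of them carried reporter RNA. Clusters named from blood markers held 94.7% of the naive and 94.4% of the exhausted gated cells, clusters with osteoblast-lineage or endothelial markers held 3.58% and 2.46%, and 2 clusters without a name held 1.74% and 3.13%. A tdTomato UMI was found in 3.58% of naive and 2.501% of exhausted gated cells, against 32.6% and 29.8% of the cells outside the rule. Median depth outside the rule was lower, 7217 and 6750 UMIs. RNA of other cells was present in both libraries: in Cxcl12-rich cells without Ptprc, S100a8 and S100a9 together, which encode the main cytosolic protein pair of neutrophils, reached 78.3 CPM, UMIs of the genes scaled to a common library total, in the naive and 139 CPM in the exhausted library, and haemoglobin genes 2239 and 4545 CPM. The summed reticular stroma markers in gated cells were 1729.5 CPM in the naive and 1435 CPM in the exhausted library. The 2 libraries shared 0 cell barcodes.

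The dendritic share of the gated cells was higher and the early B and B shares were lower in the exhausted library, and in percentage points these were the largest differences between classes. Classes are clusters named from marker lists, and "-like" is left off after the first mention of each. Cells like conventional dendritic cells, which present antigen to T cells, were 25 cells, 2.71% (1.76 to 3.98%) of the gated naive and 219 cells, 8.56% (7.503 to 9.71%) of the gated exhausted cells, with 25 cells, 1.7% (1.103 to 2.499%) in the control library. The exhausted share was 3.15-fold the naive share (2.099 to 4.74), and 2.99-fold when cells were clustered without the leading genes of any cluster. This class is 1 cluster led by Cd209a, Lyz1, Mgl2, Ly6i and MHC class II genes, and it also carried 11 of 17 monocyte markers.

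Early B-like cells, the pro-B and pre-B stages that recombine their antibody genes, were 174 cells, 18.9% (16.4 to 21.6%) of the naive and 314 cells, 12.3% (11.02 to 13.6%) of the exhausted gated cells. B-like cells, immature and mature together, were 102 cells, 11.1% (9.12 to 13.3%) and 178 cells, 6.96% (6 to 8.01%). Both shares were lower in the exhausted library, with log2 ratios of -0.62 (-0.87 to -0.38) for early B and -0.67 (-1.005 to -0.34) for B cells. In the control library, early B cells were 10.3% and B cells 10.7%, so the early B share of the naive library stood above both others and the B share of the exhausted library below both others. Not every cluster of these classes had a lower share: the early B cluster led by Vpreb1, Dntt and Igll1 was 1.41% of the naive and 2.89% of the exhausted gated cells, and the B cluster led by Fcer2a and Ighd 3.8% and 3.48%. Cluster sizes rest on genes that differ between the libraries. The denominator sets the direction here: of all filtered cells, stroma included, early B cells were 3.32% in the naive and 5.002% in the exhausted library, and B cells 1.95% and 2.84%.

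The larger myeloid classes other than dendritic cells kept closer shares of the gated cells. Mature neutrophil-like cells were 182 cells, 19.8% (17.2 to 22.5%) of the naive and 577 cells, 22.5% (20.9 to 24.2%) of the exhausted gated cells, a log2 ratio of 0.19 (-0.0241 to 0.40). Immature neutrophil-like cells, which make the secondary granules, were 9.55% and 10.6%, and monocyte-like cells 5.75% and 6.64%. Granulocyte-monocyte progenitor-like cells were 6.84% and 5.59%. The larger cluster of this class, of 48 naive and 107 exhausted cells, carried 9 of 15 progenitor and 10 of 17 monocyte markers. The smaller, of 15 and 36 cells, carried 15 of 15 progenitor markers. Macrophage-like cells were 82 cells, 8.903% (7.14 to 10.9%) and 224 cells, 8.75% (7.69 to 9.92%), with a log2 ratio of -0.0245 (-0.37 to 0.32), while the control library held 2.92%. The ratio of each of these 5 classes had an interval that held 0. The mature and immature neutrophils together were 29.3% and 33.1%, a log2 ratio of 0.18 (0.01003 to 0.34), which left out 0 narrowly. Of all filtered cells, stroma included, each of the 5 classes had a higher share in the exhausted library. Mature neutrophils were 3.47% and 9.19%, immature neutrophils 1.68% and 4.3%, and monocytes 1.01% and 2.71%. Progenitors were 1.2% and 2.28%, and macrophages 1.56% and 3.57%.

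Among the rarer classes, osteoclast-like cells, the bone-resorbing relatives of macrophages, were 13 cells, 1.41% (0.754 to 2.402%) in the naive and 66 cells, 2.58% (2 to 3.27%) in the exhausted library, with 3 cells, 0.204% (0.0421 to 0.595%) in the control library. Erythroid cells that passed the rule were 1.09% and 2.19%, and basophil- or mast-like cells 1.74% and 0.821%. The basophil or mast class is 1 cluster, which carried 12 of 14 of its own markers and 16 of 18 stem and progenitor markers. The log2 ratios of these 3 classes, 0.87 (0.0185 to 1.72), 1.01 (0.0465 to 1.98) and -1.08 (-2.01 to -0.15), had intervals that came near 0, and they rest on 10 to 16 naive cells each. Plasmacytoid dendritic, eosinophil, plasma and T-like cells had ratios whose intervals held 0.

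**Figure D1:**
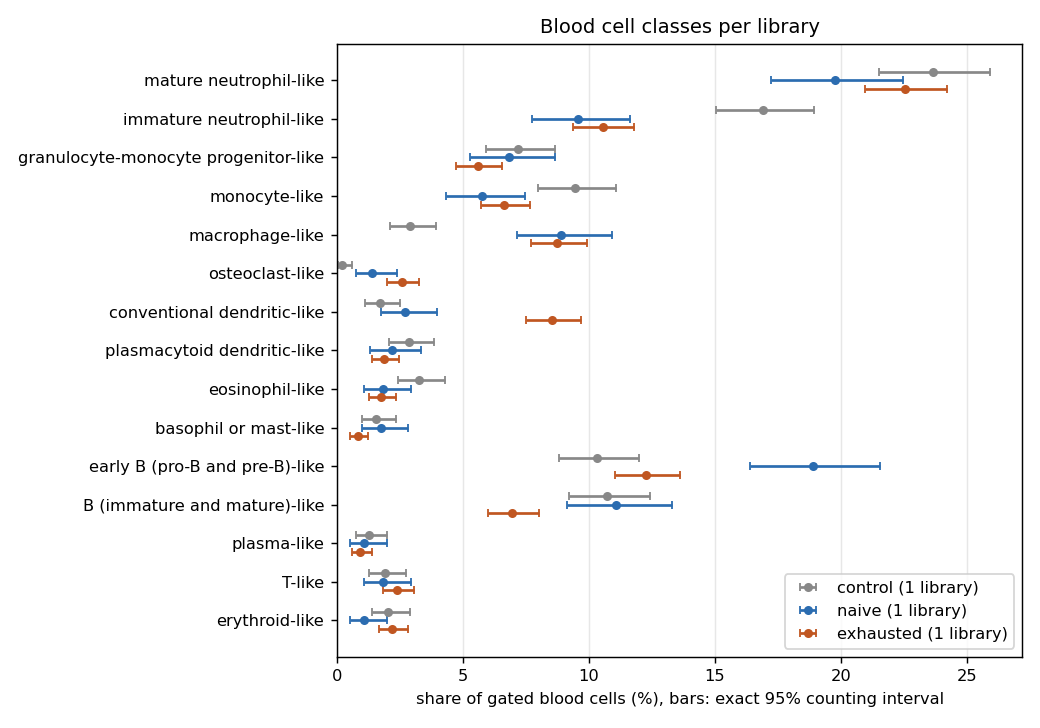
Share of gated blood cells in each class (horizontal axis, percent) for the control, naive and exhausted libraries; points are 1 library each and bars are exact 95% counting intervals. The conventional dendritic-like share is 8.56% in the exhausted and 2.71% in the naive library, the early B-like share is highest in the naive library, and the naive and exhausted macrophage-like shares overlap.

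Over all gated cells, the exhausted library had more RNA of Gpnmb, Lyz1 and several chemokines and less of matrix genes such as Ccn2 and Tnc. Of 7033 genes with at least 20 CPM in either library and 50 UMIs in the higher, 30 (0.427%) were at least 2-fold higher and 55 (0.782%) at least 2-fold lower with an interval that left out 1. Gpnmb, a lysosomal membrane glycoprotein of lipid-loaded macrophages, was at 1.41 CPM in the control, 8.41 in the naive and 101 in the exhausted library, 11.95-fold higher (95% counting interval 9.77 to 14.8). The chemokines Ccl8, Ccl7 and Cxcl10, which draw monocytes and T cells, stood 3.67-fold (3.35 to 4.02), 3.28-fold (2.86 to 3.78) and 2.73-fold (2.42 to 3.09) above their naive levels. Lyz1, a lysozyme, was 8.77-fold (6.57 to 11.97) higher, and Ly6i, a Ly6-family surface protein, 3.45-fold (2.76 to 4.37). In the exhausted library, macrophages held 94.4% of the Gpnmb and 96.9% of the Ccl8 UMIs, and dendritic cells 84.5% of the Lyz1 and 83.1% of the Ly6i UMIs. The last 2 genes lead the dendritic cluster, and with every class held at its naive share of UMIs the log2 ratio of Ly6i went from 1.79 to 0.54, while that of Gpnmb was 3.31. The atypical chemokine receptor Ccrl2 was higher by 2.37-fold (2.24 to 2.52), and the surface proteins Ly6a, Ms4a6d, Clec4n and Anpep by 2.82, 2.29, 2.26 and 2.21-fold. Saa3, which had the largest ratio, is described with the macrophages. The antibody gene Ighg2b was higher too, but 1 exhausted cell held 80.1% of its UMIs there.

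The named genes that were lower are mainly of matrix proteins and their modifying enzymes, which stromal cells make. The rule for naming asked for 5% of cells and so passed over genes of rarer cells that were lower too, such as the basophil and mast cell proteases Cpa3, at 58.2 and 12.02 CPM, and Prss34, at 242 and 54.4 CPM. The B cell genes Ly6d, Siglecg, Niban3 and Fcmr were also among the lower ones; these 6 were picked after their values were seen. Ccn2, a matrix protein induced by mechanical load, was at 53.1 CPM in the naive and 10.7 CPM in the exhausted library, 4.98-fold lower (4.34 to 5.71), and Plod2, a collagen lysine hydroxylase, at 25.6 and 7.11 CPM. Tnc, the matrix glycoprotein tenascin C, was at 161 and 56.3 CPM, and Col6a2, Col8a1, Serpinh1, Col6a1, Gpc6, Timp3, Col4a2, Col4a1 and Col5a2 were 2.46 to 3.31-fold lower. Of the 55 lower genes, 37 stood higher in the naive cells outside the rule than in the naive gated cells. Of the 30 higher genes, 5 stood higher in the exhausted cells outside than in the exhausted gated cells. The same share over all 7033 tested genes is not given here, so the 2 counts stand without a background. With the named blood classes alone, 28 genes were higher and 27 lower. Scaling by TMM, a trimmed mean over genes, adds 0.10 to the log2 ratios here, 0.15 in monocytes and 0.14 in macrophages, and under 0.1 in the other classes.

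Proinflammatory cytokines and chemokines stood higher over all gated cells. In this list, 5 of 21 measured members were at least 2-fold higher and 0 lower, against 0.565% higher and 1.71% lower of all genes with 5 CPM, and its median log2 ratio was 0.78 against -0.0603 over all of them. Il1b, the fever-causing cytokine interleukin 1 beta, was at 518, 336 and 658 CPM in the control, naive and exhausted library, so the exhausted value was the highest and the naive one the lowest. Ptgs2, the prostaglandin synthase COX-2, stood at 47.7 CPM in the naive and 96.8 CPM in the exhausted library, and Cxcl1, which draws neutrophils, at 3.78 and 15.2 CPM. The MHC class II list had a median of 0.51 with 0 of 12 members past 2-fold. H2-Aa, a class II chain, was 1.77-fold higher (95% counting interval 1.74 to 1.801) and its chaperone Cd74 1.59-fold (1.57 to 1.61), while at the naive class mix their log2 ratios were 0.0883 and 0.04797. The mature B list had a median of -0.49 with 2 of 21 members at least 2-fold lower, among them Tnfrsf13c, the receptor for the B cell survival factor BAFF, at 86.98 and 37.95 CPM. The early B list had -0.46 and the T cell list 0.71, where 3 of 14 members were at least 2-fold higher, such as Trbc2, a T cell receptor constant region, at 5.32 and 16.2 CPM. Immediate early genes had a median of 0.33 with 0 of 20 past 2-fold.

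**Figure D2:**
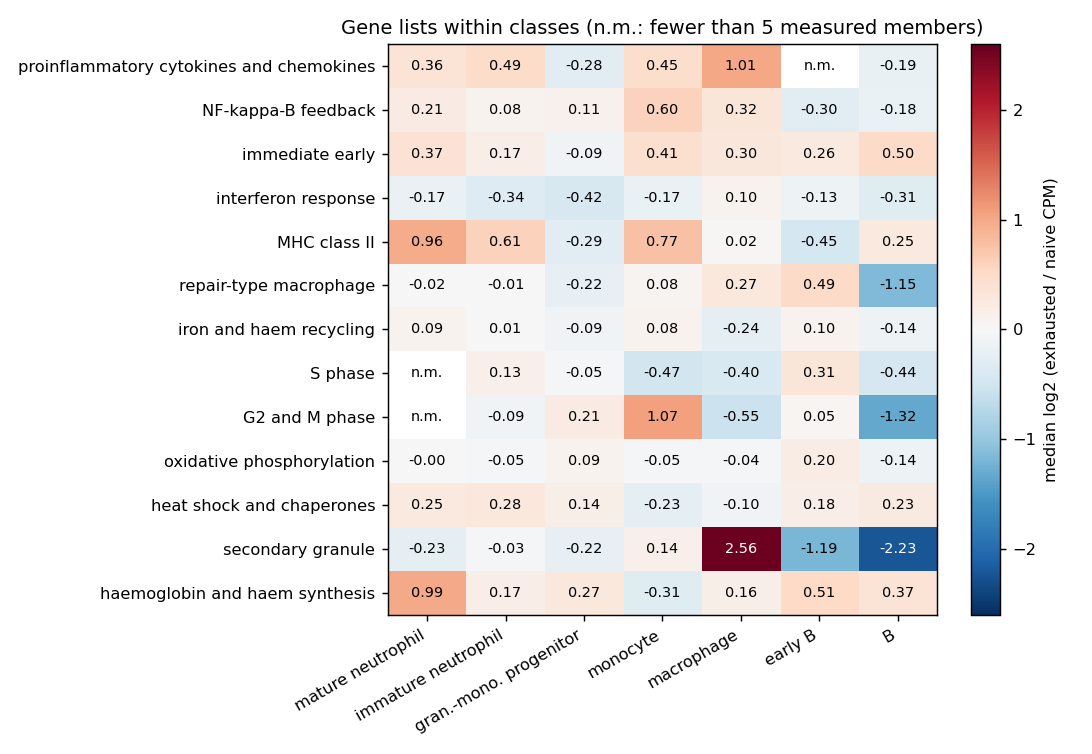
Median log2 ratio of exhausted over naive CPM for 13 gene lists (rows) within 7 classes (columns), red for higher and blue for lower in the exhausted library. The proinflammatory list stands at 1.01 in macrophages and at 0.36 in mature neutrophils; its secondary granule value in macrophages is 2.56, and 0.45 without 4 granule-rich cells.

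Macrophages of the exhausted library had more RNA of inflammatory mediators, while their share of the gated cells did not differ beyond counting error. They were 82 naive and 224 exhausted cells of 1 cluster, with medians of 19312 and 20854 UMIs a cell. C1qa, a chain of the complement starter C1q and a defining marker, stood at 2395 CPM in the control, 2567 in the naive and 2572 in the exhausted library. Of 5723 genes tested, 114 (1.99%) were higher and 50 (0.874%) lower in the exhausted library.

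Saa3, an acute-phase serum amyloid protein that macrophages make under inflammation, had 0 UMIs in the 43 control and 82 naive macrophages and 587 CPM in the exhausted ones. The exhausted level was at least 321-fold higher, set against 3 UMIs in the naive sum. Its UMIs lay in 38 of 224 exhausted cells, the richest of which held 34.9%, and a count of 0 in 82 cells has an exact upper limit for the share of cells with a UMI of 4.399%. Saa3 also stood at 9.68 and 24.4 CPM in Cxcl12-rich cells without Ptprc.

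Gpnmb was at 0, 46.99 and 565 CPM in the control, naive and exhausted macrophages, 12.03-fold higher (95% counting interval 9.596 to 15.3). It was found in 16 of 82 naive cells (19.5%) and 101 of 224 exhausted cells (45.1%), so both libraries held cells without it. It is a leading gene of the cluster, and with classes from the clustering that left such genes out its log2 ratio was 3.45. Spp1, osteopontin, a secreted bone and repair protein, was at 57.4 CPM in the naive and 276 CPM in the exhausted library, and Fabp5, a fatty acid carrier, at 590.2 and 1432 CPM. Vegfa, the vessel growth factor, was at 75.4, 18.9 and 80.7 CPM in control, naive and exhausted macrophages, and the anti-inflammatory cytokine Il10 at 89.4, 11.6 and 52.1. For Vegfa and Il10 the exhausted value was close to or below the control value and the naive one the lowest. Cd9, a tetraspanin, was at 12.2 and 61.4 CPM. In the repair-type macrophage list, which holds these genes, 7 of 19 measured members were at least 2-fold higher and 0 lower, with a median log2 ratio of 0.27. Of all genes with 5 CPM in macrophages, 2.91% were higher and 4.72% lower by that fold, and their median was -0.0903.

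Inflammatory mediators were higher together in exhausted macrophages: 10 of 20 measured members of the proinflammatory list were at least 2-fold higher and 1 lower, with a median log2 ratio of 1.01. Cxcl2, which draws neutrophils, was at 64.2, 89.7 and 482 CPM in control, naive and exhausted macrophages, 5.37-fold higher (95% counting interval 4.55 to 6.39). A single naive cell held 54.4% of the naive UMIs, and without the richest cell of each library the ratio was 10.6-fold. Ccl5, which draws T cells and monocytes, was at 5.49 CPM in the naive and 129.8 CPM in the exhausted library, in 4 and 51 cells. Il1b was at 211, 66.5 and 229 CPM and its natural antagonist Il1rn at 97.7, 19.5 and 65.2, so ligand and antagonist stood higher together in the exhausted than in the naive library, with control values on the side of the exhausted ones. Ccl7 had 405, 108 and 312 CPM, Ccl3 406, 189.8 and 438, and Cxcl10 304, 98.3 and 229, again with the naive macrophages lowest. Ptgs2 was at 3.66 and 45.5 CPM (3 and 39 cells), Clec4e, the receptor Mincle that senses damaged cells and mycobacterial lipids, at 6.71 and 77.9, and Acod1, the itaconate-making enzyme, at 4.27 and 39.97. Lyz1 had 2.44 and 21.5 CPM. Cxcl9, an interferon-induced chemokine, was at 331 and 156 CPM, but 1 naive cell held 89.3% of it and without the richest cells the exhausted value was 3.09-fold the naive one. The interferon list as a whole had 4 of 36 members higher, 3 lower and a median of 0.10, and the MHC class II list a median of 0.0211 with 0 of 10 past 2-fold.

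**Figure D3:**
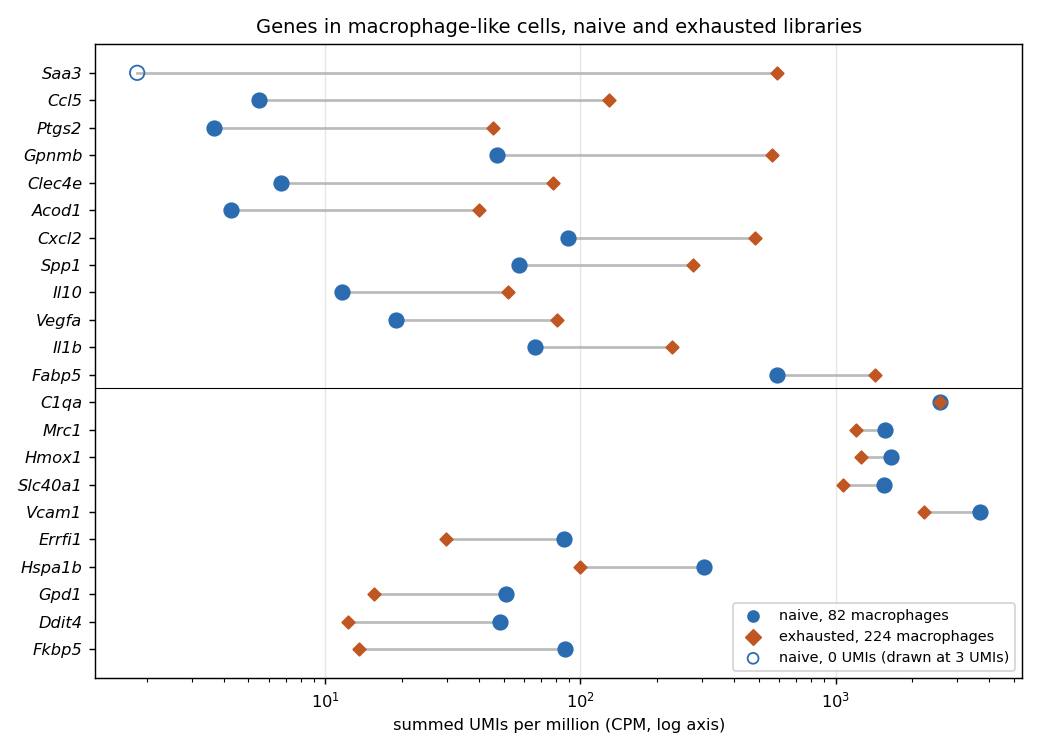
Summed CPM (log axis) of 22 genes in macrophage-like cells of the naive (circles) and exhausted (diamonds) library. Genes above the line were higher in the exhausted library, from Saa3 with 0 naive UMIs and 587 CPM to Fabp5; of those below, C1qa differed least and Fkbp5 stands at 86.7 and 13.5 CPM.

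The start-site sequences of 4 of these genes are shown because they carry letters that match binding motifs of inflammatory transcription factors; the genes were chosen after their values were seen. Each line is the 120 bases before the start in RefSeq, build GRCm38.p6, 5′ to 3′ on the gene's strand, with the matches in capitals.
Saa3, chr7:46715677-46715796, minus strand: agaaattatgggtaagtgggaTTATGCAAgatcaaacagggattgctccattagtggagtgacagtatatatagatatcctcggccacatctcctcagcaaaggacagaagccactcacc
Cxcl2, chr5:90903779-90903898, plus strand: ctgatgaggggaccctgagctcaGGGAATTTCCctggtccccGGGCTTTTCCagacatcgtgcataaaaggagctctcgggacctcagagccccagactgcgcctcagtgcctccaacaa
Ptgs2, chr1:150099911-150100030, plus strand: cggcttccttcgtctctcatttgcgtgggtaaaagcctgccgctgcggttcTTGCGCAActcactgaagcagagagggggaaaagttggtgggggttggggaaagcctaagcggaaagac
Clec4e, chr6:123289872-123289991, minus strand: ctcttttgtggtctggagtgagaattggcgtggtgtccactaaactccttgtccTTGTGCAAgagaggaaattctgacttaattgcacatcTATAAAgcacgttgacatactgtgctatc

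In the Cxcl2 line the capitals mark 2 matches to the kappa-B motif of NF-kappa-B, which 535 of 32851 RefSeq windows of 300 bases (1.63%) held on either strand. In the Saa3, Ptgs2 and Clec4e lines they mark 1 match each to TTGCNNAA, the C/EBP motif, held by 10.8% of windows, and in Clec4e also TATAAA, held by 13.6%. Gpnmb, Acod1, Ccl8 and Il1b were searched in the same way, and none of their windows held a kappa-B or C/EBP match of these letters. The Gpnmb window held 1 match to TGANTCA, the AP-1 motif (7.81% of windows), and the Acod1, Ccl8 and Il1b windows held TATAAA. Also searched were 2 motifs of the MITF transcription factor family. Their only match was 1 TCACGTG (3.77% of windows) in the Ptgs2 window, past the start and outside the line shown. A match is a description of the letters; binding was not measured.

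The genes that were lower in exhausted macrophages include Fkbp5, Ddit4 and Errfi1. Fkbp5, a cochaperone of the glucocorticoid receptor that the hormone induces, was at 41.9 CPM in the control, 86.7 in the naive and 13.5 in the exhausted library, 6.41-fold lower (4.77 to 8.69). It was found in 55 of 82 naive (67.1%) and 51 of 224 exhausted cells (22.8%) at similar depth, so the difference was spread over many cells. Ddit4, a stress-induced brake on growth signalling, was at 48.2 and 12.3 CPM, Errfi1, a brake on EGF receptor signalling, at 86.1 and 29.8, and the heat shock gene Hspa1b at 306 and 99.2. The list of heat shock and chaperone genes had 1 of 16 members higher, 1 lower and a median of -0.10, and that of lysosome and lipid handling 2 of 25 higher, 1 lower and 0.0932. Gpd1, a glycerol phosphate dehydrogenase, was at 51.3 and 15.5 CPM. Of the rest, Ccn2, Col4a1 and Col8a1 are stromal genes, with 71.1%, 20% and 48.3% of their naive UMIs in 1 cell each, and the lipid desaturase Scd1 had 90.6% in 1 naive cell. In the same way 1 exhausted cell held 99.6% of Ighg1 and 88.5% of Slpi, both of which were far higher in the exhausted sum.

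Vcam1 and several genes of iron recycling were lower over all macrophages by under 2-fold, a difference that was not found in each finer cluster, as given further on. Vcam1, an adhesion molecule of resident marrow macrophages, was at 2653, 3692 and 2221 CPM in control, naive and exhausted macrophages, and its log2 ratio of -0.73 was -0.81 with classes clustered without leading genes. Hmox1, which breaks down haem, was at 1642 and 1256 CPM, the iron exporter Slc40a1 at 1548 and 1073, and Spic, the transcription factor of iron-recycling macrophages, at 546 and 370.03. The mannose receptor Mrc1 had 1563 and 1198 CPM and Axl, a receptor for dying cells, 1608 and 1087. The iron list had 1 of 18 members higher, 1 lower and a median of -0.24. The list of C1q and dead-cell clearance had 2 of 19 higher, 1 lower and -0.0757. Among factors that act on bone and stroma, 6 of 15 were higher and 2 lower; the lower ones included Tnfsf11, the osteoclast factor RANKL, at 14.6 and 1.79 CPM, 79.2% of it from 1 naive cell.

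**Figure D4:**
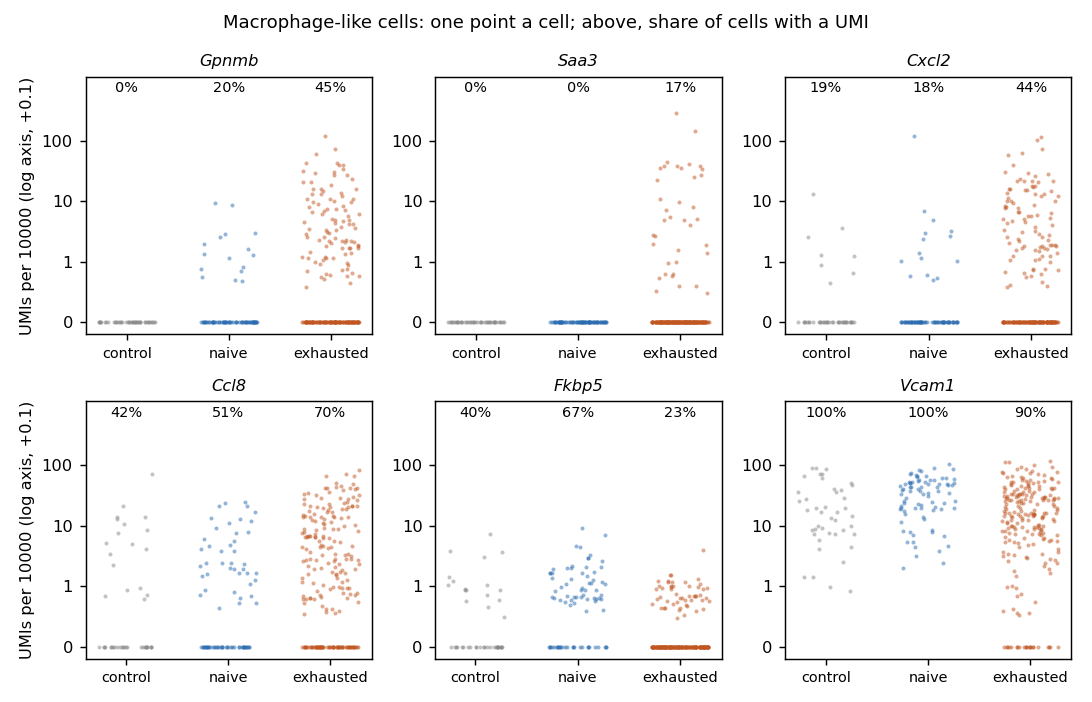
Each point is 1 macrophage-like cell of the control, naive or exhausted library, at its UMIs per 10000 (log axis, 0.1 added), with the share of cells holding a UMI above. Fkbp5 was detected in 67.1% of naive and 22.8% of exhausted cells, while Gpnmb, Saa3 and Cxcl2 were spread over a subset of exhausted cells.

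Finer clustering split the macrophages into 2 clusters, of 44 naive and 172 exhausted cells with Gpnmb among its leading genes, and of 37 and 53 cells with Vcam1 and Cd163. Fkbp5 was lower in the exhausted cells of both, at 87.3 and 10.8 CPM in the first and 91.6 and 23.8 CPM in the second. Cxcl2 was higher in both, by 4.21-fold (3.48 to 5.16) and 8.78-fold (5.74 to 14.1). Ptgs2 and Spp1 differed in the first, by 12.7 and 3.599-fold; in the second they had 2.73 and 2.86 CPM, and 16.4 and 18.1 CPM. In the second cluster Gpnmb was at 10.9 and 4.76 CPM, Ccl8 at 227 and 195, and Saa3 at 0 UMIs in both libraries, so none of the 3 was higher in the exhausted cells of that cluster. Vcam1, Hmox1, Slc40a1 and Mrc1 stood at 1.01, 0.969, 1.06 and 0.959 times their naive level in the second cluster and at 0.584, 1.35, 0.7399 and 0.753 times in the first, where Hmox1 was higher. The class sums thus hold a different mix of the 2 clusters in each library, and some of these genes lead those clusters.

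Neutrophil RNA moved with the macrophage comparison. S100a8 was at 52.5 CPM in naive and 468 CPM in exhausted macrophages, 35.99% of the exhausted UMIs from 1 cell. The secondary granule list had 8 of 12 members at least 2-fold higher with a median of 2.56, and the primary granule list 6 of 10 with 1.93. Without the 4 exhausted and 0 naive macrophages whose summed Ltf, Camp and Ngp, 3 secondary granule genes, exceeded 1000 CPM, 3 of 11 secondary granule members were higher, with a median of 0.45. In those remaining cells the proinflammatory median was 1.03, and 100 genes were higher and 52 lower, 99 and 50 of them among those above.

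Monocytes of the exhausted library also had more inflammatory RNA, but more of them carried neutrophil RNA as well. They were 53 naive and 170 exhausted cells, of which 2 (3.77%) and 29 (17.1%) exceeded 1000 CPM of Ltf, Camp and Ngp, and S100a8 was at 1806 and 8972 CPM. Of 4098 genes, 143 (3.49%) were higher and 21 (0.512%) lower. Without the granule-rich cells, 80 were higher and 19 lower, 61 and 16 of them among the first, and AA467197, Mrgpra2b and Syne1, which were 19.5, 6.43 and 6.23-fold higher before, had log2 ratios of -1.25, -1.84 and -0.72. Classes clustered without leading genes gave 59 higher and 40 lower genes in a broader monocyte class of 128 and 364 cells.

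Ptgs2 was at 4.3 CPM in naive and 54.1 CPM in exhausted monocytes, and its log2 ratio of 3.65 was 4.03 without granule-rich cells. Cxcl2 was at 78.8 and 337 CPM, Il1b at 236 and 558, and the NF-kappa-B brake Tnfaip3, or A20, at 24.4 and 94.1. Atf3, a stress-induced transcription factor, had 296, 188 and 445 CPM in control, naive and exhausted monocytes. The proinflammatory list had 7 of 16 members at least 2-fold higher and a median of 0.45, against 5.86% higher and 9.1% lower of all measured genes, and the NF-kappa-B feedback list 2 of 14 and 0.60. MHC class II genes stood higher, with 4 of 11 past 2-fold and a median of 0.77; without granule-rich cells these were 6 of 11 and 1.33. H2-Aa was at 291 and 789 CPM and H2-Eb1 at 105 and 495, where 1 cell held 71.4% and 78.1% of the naive UMIs. Division genes of G2 and M phase had 11 of 19 members higher, such as cyclin A2, Ccna2, at 4.3 and 36.7 CPM; without granule-rich cells 5 of 15 were. The S phase list went the other way, with 0 of 20 higher, 3 lower and a median of -0.47, and 7 lower with -0.71 without granule-rich cells. Lower in exhausted monocytes were Fkbp5, at 43.7, 146 and 26.3 CPM in control, naive and exhausted cells, Hspa1b at 525 and 190.5, and the stromal genes Col1a2, Sparc and Tnc, at 181 and 33.9, 97.5 and 21.2, and 90.3 and 22.6 CPM. The secondary granule list in monocytes had 5 of 15 higher and a median of 0.14, and 2 of 13 and -0.0323 without the granule-rich cells.

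Mature neutrophils differed in few genes. Of 3875 genes, 36 (0.929%) were higher and 8 (0.206%) lower, in 182 naive and 577 exhausted cells with medians of 6890.5 and 4901 UMIs. The abundant S100a8 and S100a9 were at 53222 and 52454 CPM and 63946 and 67687 CPM, and Cxcr2, the receptor that brings neutrophils into blood, at 3031 and 2957. Ly6g, the neutrophil surface marker, was at 979 and 704 CPM.

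Arl4c, a small GTPase of the cell cortex, was at 115 CPM in the control, 25.99 in the naive and 166 in the exhausted library, 6.37-fold higher (95% counting interval 4.56 to 9.14), in 27 and 219 cells; the naive library was the one that stood apart. Atf3 was at 23.95, 28.8 and 87.9 CPM, so here the exhausted library stood apart. The cystatin-like inhibitors Stfa1 and Cstdc5 were at 35.8 and 107, and 30.9 and 78.8 CPM; they belong to a family of near-identical copies whose UMIs may be split between members. Lpin2, a phosphatidate phosphatase, was at 9.83 and 30.5 CPM, the death gene Pmaip1 at 9.83 and 27.8, and the class I gene H2-Q7 at 6.32 and 22.96. AI506816 had 0.702 and 25.1 CPM, from 1 and 38 cells. Of the 36 higher genes, 19 stood higher in the exhausted cells outside the rule than in exhausted neutrophils. Among them were Atf3, Lpin2, H2-Q7 and AI506816, at 173, 64.6, 135 and 121 CPM there. Of the 8 lower genes, 6 stood higher in the naive cells outside. The part of RNA from other cells in these values was not tested. Fkbp5 was at 47.1, 81.5 and 31.1 CPM, 2.62-fold lower (1.99 to 3.45), Pmvk, an enzyme of the cholesterol pathway, at 42.9 and 13.9, and Swap70, an actin-binding protein, at 38.6 and 15.7. The stromal genes Tnc and Col1a2 were lower as well, 82.9 and 26.6, and 169 and 70.7 CPM, and Ghr, the growth hormone receptor, had 60% of its naive UMIs in 1 cell and a ratio of 1.05 without the richest cells.

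Cytokine genes of mature neutrophils stayed within 2-fold with 1 exception. The proinflammatory list had 0 of 15 members higher, 1 lower and a median of 0.36, against 3.66% higher and 4.74% lower of all measured genes and a median of -0.02201. Il1b was at 2619, 2112 and 3136 CPM in control, naive and exhausted neutrophils, Ptgs2 at 291, 257 and 412, and Osm, oncostatin M, which acts on bone-forming cells, at 652, 466 and 599.6. Il1b and Ptgs2 were highest in the exhausted library and Osm in the control library. Il1b and Ptgs2 lead 1 of the 2 clusters of the class, which held 87 of 182 naive (47.8%) and 354 of 577 exhausted cells (61.4%), so the class values hold a different mix of the clusters. With classes clustered without leading genes their log2 ratios were 0.59 and 0.69, but that version of the class shared 1047 cells with the first over all 5 libraries. It too pools these clusters and cannot separate their mix. The immediate early list had 3 of 18 higher and a median of 0.37, the tertiary granule list 0 of 22 and 0.0343, and the secondary granule list 0 of 15 and -0.23. Haemoglobin and haem synthesis genes, which neutrophils do not make, had 4 of 9 higher, and summed haemoglobin was 275 and 674 CPM in these cells; its part in the other differences was not tested.

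In immature neutrophils 33 of 4589 genes (0.719%) were higher and 10 (0.218%) lower. Their lead granule gene Ltf, lactoferrin, was at 12469 and 12248 CPM. Il1b was at 63.9, 12.01 and 113 CPM in control, naive and exhausted cells, in 8 naive (9.09%) and 39 exhausted cells (14.4%). The chemokine Ccl3 was at 33.1, 16.5 and 56.9 CPM, in 10 naive (11.4%) and 43 exhausted cells (15.9%). For both genes the control value lay between the naive and the exhausted one. Summed RNA of the primary granule genes Mpo and Elane was lower in the exhausted than in the naive library. Mpo was at 34.6, 38.3 and 6.28 CPM in control, naive and exhausted cells, in 6 naive (6.82%) and 15 exhausted cells (5.56%). Elane was at 147, 83.3 and 41.5 CPM, in 16 naive (18.2%) and 33 exhausted cells (12.2%). The Mpo difference thus rests on few cells. Per1, a clock gene that glucocorticoids also induce, was at 43.4, 65.3 and 30.8 CPM in control, naive and exhausted cells. Cdkn1a, the cell cycle inhibitor p21, and Olfm4, a granule protein of a neutrophil subset, were 2.77 and 2.503-fold higher, but had log2 ratios of 0.0234 and -0.43 with classes clustered without leading genes. Col1a2 had 76.7% of its exhausted UMIs in 1 cell. In granulocyte-monocyte progenitors, 23 of 6317 genes (0.364%) were higher and 37 (0.586%) lower. Nrp2, a semaphorin and VEGF coreceptor, was at 19.9, 29.5 and 7.84 CPM, Tnc at 57.8 and 15.7, and Ifi207, an interferon-induced gene with near-identical neighbours, at 76.4 and 31.1. Summed Il1b and Cxcl2 were lower in exhausted than in naive progenitors, unlike in macrophages and monocytes. Il1b was at 59.5, 78 and 32.7 CPM in control, naive and exhausted progenitors, in 13 naive (20.6%) and 29 exhausted cells (20.3%). Cxcl2 was at 11.9, 63.8 and 16.5 CPM, in 2 naive (3.17%) and 19 exhausted cells (13.3%), so its detection went the other way. Ltf, Camp and Ngp exceeded 1000 CPM in 20.6% of naive and 13.3% of exhausted progenitors, whose part was not tested. Cxcl10 was higher, at 5.45 and 21.4 CPM, in 4 and 14 cells. This class depended on the clustering: with leading genes left out the 2 versions of it shared 71 cells over all 5 libraries, and Vcan, 2.83-fold higher, and F11r, 5.41-fold higher with 81.01% of its exhausted UMIs in 1 cell, had log2 ratios of -1.87 and -2.87.

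Early B cells of the exhausted library had more RNA of Dntt and of the surrogate light chain. Dntt, the enzyme that adds bases at antibody gene joints in pro-B cells, was at 205 CPM in the control, 116 in the naive and 367 in the exhausted library, 3.16-fold higher (95% counting interval 2.68 to 3.75), and a UMI was found in 17 of 174 and 77 of 314 cells. Dntt, Vpreb1 and Igll1 lead 1 of the 3 clusters of the class, which held 13 naive and 74 exhausted cells, while the cluster led by Il2ra and Rag1 held 109 naive and 158 exhausted cells and that led by Nrgn and Myl4 52 naive and 82 exhausted cells. The class values thus hold a different mix of clusters in each library. With classes clustered without leading genes their log2 ratios were 1.73, 1.13 and 1.08. That version of the class shared 716 cells with the first over all 5 libraries, so it pools the same clusters and cannot separate their mix. Vpreb1 and Igll1, the surrogate light chain of the pre-B receptor, were at 184 and 383 CPM and 265 and 533 CPM. Erg, a transcription factor of stem cells and early B cells, was at 129.98, 52.1 and 176 CPM, Arl4c at 39.3, 14.8 and 67.6, and Apold1 and Acpp, an acid phosphatase, were 4.603 and 8.53-fold higher. For Dntt, Erg and Arl4c the control value lay between the naive and the exhausted one.

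Other genes of early B cells differed less. Rag1, a recombinase subunit, was at 346 and 309.9 CPM and Cd79a, a signalling chain of the B cell receptor, at 2545 and 2279.6. Il7r, the receptor for interleukin 7, was at 877, 1076 and 738 CPM in control, naive and exhausted cells. The early B list had 5 of 18 members higher, 0 lower and a median of -0.0798, while the stem and progenitor list had 6 of 10 higher and 1.13, with Adgrg1, an adhesion receptor, at 106 and 212 CPM. Of all measured genes 4.61% were higher and 4.19% lower, with a median log2 ratio of 0.00475. Lower were Adam19, a membrane protease, at 230.2 and 99.9 CPM, the survival kinase Pim2 at 92.9 and 35.5, Tram2 at 80.97 and 30.6, the caspase Casp6 at 39.4 and 14.97, and the RNA-binding protein Rbm24 at 57.03 and 23.7. In all, 92 of 6101 genes (1.51%) were higher and 42 (0.688%) lower. The secondary granule list stood at -1.19, with 7 of 13 members lower, beside summed S100a8 and S100a9 of 557 and 109 CPM.

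Gpr183 and Ccr7 were among the genes that were higher in B cells of the exhausted library. Gpr183, also called EBI2, an oxysterol receptor that places B cells in lymphoid tissue, was at 154 CPM in the control, 56.7 in the naive and 213 in the exhausted library, 3.76-fold higher (95% counting interval 2.603 to 5.56). Ccr7, the lymph node homing receptor, was at 345, 173 and 397 CPM, the lysophospholipid receptor Gpr174 at 53.8, 19.4 and 69.8, and Gimap4, a GTPase of lymphocytes, at 90.1, 38.9 and 106. In all 4 the naive library was the lowest. S1pr1, the receptor for exit into blood, was at 232 and 385 CPM, its regulator Klf2 at 579.7 and 996, and Ighd, the antibody class of mature naive B cells, at 1001 and 1283, each under 2-fold, with Ighd a leading gene of 1 of the 2 clusters. That cluster held 35 of 102 naive and 89 of 178 exhausted B cells, so the class values hold a different mix of the 2. The adhesion and homing list had 0 of 17 members at least 2-fold higher, 3 lower and a median of 0.32. The linker histone H1f2 was at 85.8 and 245 CPM. The mature B list had 1 of 21 members higher, 0 lower and a median of 0.22, where 6.92% of all measured genes were higher and 9.89% lower. Of the genes tested, 60 of 3123 (1.92%) were higher and 27 (0.865%) lower.

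Lower in exhausted B cells were Cfp, properdin, at 167 and 62.7 CPM, the adhesion molecule Icam1 at 110.1 and 48.5, and Arid3a, a transcription factor of immature B cells, at 139 and 61.5. Ranbp10 was lower too, with 58.7% of its naive UMIs in 1 cell and a log2 ratio of 0.02804 under the clustering without leading genes. Lists of other programmes stood low: G2 and M phase genes with 12 of 18 members lower and a median of -1.32, secondary granule genes with 8 of 13 and -2.23, and C1q and clearance genes with 7 of 15 and -0.87. They rest on few naive cells: the division marker Mki67, at 121 and 55.6 CPM, had UMIs in 6 of 102 naive cells, C1qb in 3, and 1 naive cell held 98.6% of the granule gene Ngp. The plasma cell list had 4 of 11 members higher, and Igha, at 9.72 and 557 CPM, had 87.7% of its exhausted UMIs in 1 cell.

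Fkbp5 was named by the rule in 3 classes, and it was followed over all 7 with 9 other genes that glucocorticoids induce, chosen after the values of Fkbp5 were seen. In the exhausted library Fkbp5 was lower in mature neutrophils, monocytes and macrophages, as given above, and in progenitors (107 and 66.9 CPM) and B cells (55.1 and 22.5 CPM). In immature neutrophils it was at 62.3 and 58.1 CPM and in early B cells at 31.7 and 39.7, with ratio intervals that held 1. The control values were 47.1 CPM in mature neutrophils, 43.7 in monocytes and 41.9 in macrophages, between the naive and the exhausted ones, while in B cells the control value of 18.7 CPM lay below both. Fkbp5 was also lower outside the rule, at 70.5 and 33.5 CPM. Tsc22d3, or GILZ, was lower in 6 of the 7 classes, for example at 209 and 123 CPM in macrophages, and higher in B cells, at 191 and 266. The others did not share 1 direction. With intervals that left out 1, Errfi1 was lower in 6 classes and higher in 0, Per1 in 4 and 1, Klf9 in 3 and 0, Ddit4 in 3 and 1, Sgk1 in 3 and 2, and Zbtb16 in 2 and 0. The phosphatase gene Dusp1 was lower in 1 and higher in 4, at 536 and 881 CPM in macrophages, and Cebpd was lower in 1 and higher in 0. These counts of classes ask for no fold and rest on counting error only. The share of all genes whose interval left out 1 is not given here, so the counts have no background and only describe these genes.

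**Figure D5:**
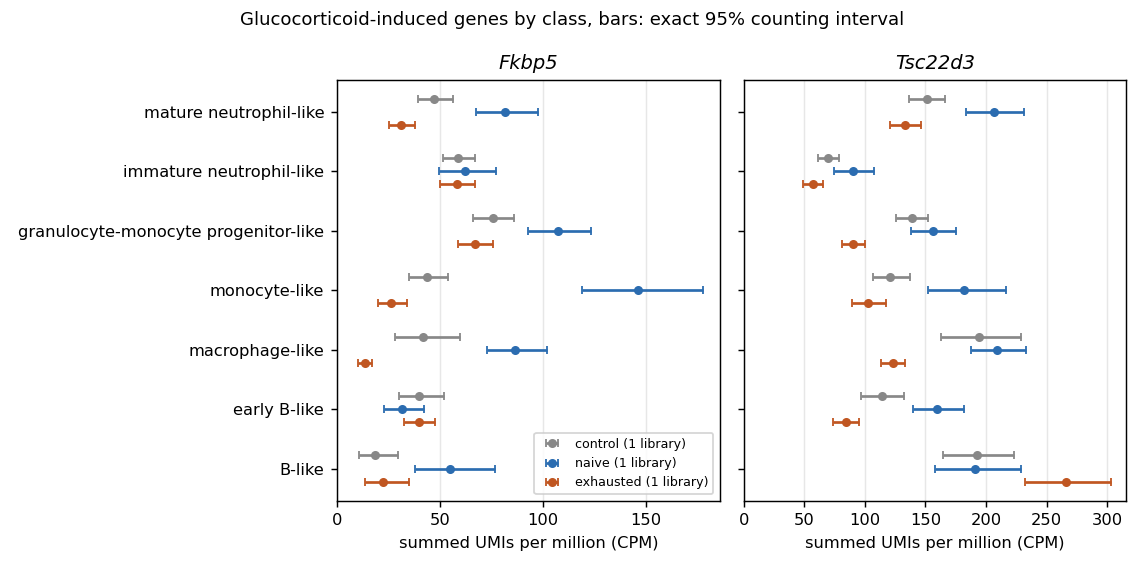
Summed CPM of Fkbp5 (left) and Tsc22d3 (right) in 7 classes of the control, naive and exhausted libraries, with exact 95% counting intervals. Fkbp5 in monocytes stands at 146 CPM in the naive and 26.3 in the exhausted library, and the values of immature neutrophils and early B cells overlap.

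The share of dividing cells differed little over all gated cells. With every cell thinned to 2000 UMIs, a UMI of Mki67 or Top2a, 2 genes of dividing cells, was found in 25.5% of naive gated cells (22.7 to 28.5%) and 22.9% of exhausted ones (21.3 to 24.6%), leaving out 4 and 53 shallower cells. Without thinning the shares were 35.8% and 33.1%. Immature neutrophils had 38.6% and 45.3%, early B cells 37.4% and 42.1%, progenitors 87.3% and 85.2%, and macrophages 12.2% and 9.82%, each with overlapping intervals. Monocytes had 5.66% and 13.1% thinned and 33.96% and 29.4% unthinned, in opposite order. The basophil or mast class, whose cluster also carried 16 of 18 stem and progenitor markers, differed more. The thinned share was 75% of 16 naive cells (47.6 to 92.7%) and 23.8% of 21 exhausted cells (8.22 to 47.2%). Eosinophils had 52.9% and 26.2%, with overlapping intervals. Mature neutrophils, which no longer divide, had 2.198% and 2.99%, which sets the background of this measure.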

How the data were processed

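The authors deposited whole-number UMI counts per gene and cell as 1 matrix for each of 5 libraries, made with BD Rhapsody. Per the submitters' processing notes the build is GRCm39 and Seurat 5.1 was among the tools; no aligner or cell calling method is given in the sources used here. Libraries were joined by gene symbol and the given rule was applied. Gated cells of all 5 libraries were clustered without integration (scanpy 1.11.5, Leiden resolution 1.0, 2000 variable genes, 30 principal components, 15 neighbours) and named from marker lists. No doublet caller was run; an alternative leaves out the 5% deepest cells. UMIs were summed per library and class and given as CPM, with an exact conditional binomial interval for each ratio; classes with 50 cells in both libraries were compared. These intervals understate the error where a few cells hold most UMIs of a gene. On simulated data 200 well-expressed genes were changed 4-fold, and 200 were recovered in macrophages, where 5462 of 30099 genes were tested. Those counts were drawn from the Poisson model that the intervals assume, without differences between cells. The recovery thus checks the calculation and cannot show the error in real cells. Genes named are the 12 largest ratios each way within a class, found in at least 10 cells and 5% of cells, leaving out mitochondrial, ribosomal, Gm, AC and Rik genes, transgenes and markers of other classes, plus 39 fixed genes and up to 4 members of each list described, and not all of these are printed; 1 gene is not reported here. The members, lists and tests were chosen with earlier results of these data known.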

Additional observations from a re-analysis of the deposited data

How the results depend on the processing

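Class shares kept within the counting interval of their main value in 164 of 165 comparisons of a class with an alternative, and gene list medians within the spread of their members in 223 of 232. The exception among shares was the progenitors, with a log2 ratio of 0.16 when clustered without leading genes, and the log2 ratio of the gate was 1.06 with at least 1000 genes, 2000 UMIs and under 15% mitochondrial UMIs. Gene counts were the least stable, since a looser filter tests more genes. With TMM scaling, higher genes were 55 in mature neutrophils and lower genes were 13 in monocytes, 32 in macrophages. With genes of 5 CPM and 10 UMIs, higher genes were 61 in all gated cells, 142 in mature neutrophils, 152 in immature neutrophils, 133 in progenitors, 261 in monocytes, 229 in macrophages, 329 in early B cells, 240 in B cells and lower genes were 184 in all gated cells, 192 in mature neutrophils, 177 in immature neutrophils, 283 in progenitors, 297 in monocytes, 364 in macrophages, 258 in early B cells, 320 in B cells. With classes clustered without leading genes, higher genes were 55 in mature neutrophils, 50 in immature neutrophils, 58 in progenitors, 59 in monocytes and lower genes were 6 in immature neutrophils, 14 in progenitors, 40 in monocytes. With the mean of per-cell CPM, higher genes were 55 in mature neutrophils, 38 in progenitors and lower genes were 13 in mature neutrophils, 25 in early B cells. With named blood classes only, lower genes were 27 in all gated cells. With no filter on low genes, higher genes were 260 in all gated cells, 152 in mature neutrophils, 159 in immature neutrophils, 159 in progenitors, 261 in monocytes, 243 in macrophages, 350 in early B cells, 243 in B cells and lower genes were 822 in all gated cells, 315 in mature neutrophils, 290 in immature neutrophils, 429 in progenitors, 489 in monocytes, 560 in macrophages, 352 in early B cells, 402 in B cells. At resolution 0.5, higher genes were 57 in mature neutrophils. Without granule-rich cells, higher genes were 80 in monocytes. Without the 5% deepest cells, higher genes were 88 in progenitors and lower genes were 6 in immature neutrophils. The log2 ratio changed sign for these genes of the text: with TMM scaling, S100a8 in mature neutrophils (0.0393); with classes clustered without leading genes, Olfm4 in immature neutrophils (-0.43), Vcan in progenitors (-1.87), F11r in progenitors (-2.87), Ranbp10 in B cells (0.02804); at resolution 2.0, Ghr in mature neutrophils (0.45), Col1a2 in immature neutrophils (-0.83); without granule-rich cells, AA467197 in monocytes (-1.25), Mrgpra2b in monocytes (-1.84), Syne1 in monocytes (-0.72); without the 5% deepest cells, Cxcl9 in macrophages (0.31); without the richest cell of each library, Cxcl9 in macrophages (1.63), Ghr in mature neutrophils (0.0732), Col1a2 in immature neutrophils (-0.61), Ngp in B cells (1.20). Values of single genes stayed within their counting interval in 858 of 1094 comparisons. Apart from the looser filters, the cause of these changes was not tested. The clustering without leading genes, the named blood classes, the granule-rich cells, the richest cells and the naive class mix were chosen after seeing the data. No paired analysis was possible because each group is 1 library. Depth limits rare classes: a class of 0 cells could hold up to 3 of 921 naive gated cells.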

Other observations

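The 2 clusters left without a name had no listed marker of any class among their 10 leading genes and are not in the class comparisons. One, led by Lrmda, Pid1 and Gab2, held 13 naive and 51 exhausted cells, and the other, led by Aff2, Il1rap and Antxr2, held 3 and 29. Pooled, their cells had a median mitochondrial share of 17.6% in the naive and 12.8% in the exhausted library and median depths of 5186 and 3060.5 UMIs, against 6.29% and 5.196% and the depths given above over all gated cells. The 2 clusters were unlike: over all 5 libraries the median mitochondrial share was 16.6% in the first and 2.73% in the second. The first carried 6 of 15 conventional dendritic markers and the second 9 of 15 mature neutrophil markers. The pooled values hold a different mix of the 2 in each library.

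Blood cells also lay outside the rule. Cells with over 10% of UMIs from haemoglobin genes and no place in the gate were 210 in the naive and 381 in the exhausted library. Cells outside with over 2% from S100a8 and S100a9 were 6 and 42. Cells with Ptprc but 50 or more UMIs of Cxcl12 per 10000 were 74 and 161.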
